A study of Homo sapiens with 2 samples.

Results

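IDO1, WARS and KYNU are 3 genes of tryptophan metabolism, picked by their symbols from the 36601 genes counted in OVCAR5 cells. IDO1 encodes indoleamine 2,3-dioxygenase, the enzyme that opens the tryptophan ring in the first and rate-limiting step of the kynurenine pathway. KYNU encodes kynureninase, which acts further down the same pathway. WARS, now also called WARS1, encodes the cytosolic tryptophanyl-tRNA synthetase. It consumes tryptophan for protein synthesis and does not break it down, so the name tryptophan breakdown fits IDO1 and KYNU but not WARS.

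OVCAR5 is an established ovarian carcinoma cell line, and the cells here carried a reporter that senses interferon-gamma and were positive for the fluorescent protein CFP. By the labels, 1 pool brought together 18 conditions. At each of 2, 6, 12 and 24 h there was an unstimulated culture and cultures exposed to IFNy, that is interferon-gamma, at 1, 10 and 100 ng/ml, and the 24 h unstimulated and 100 ng/ml cells were also taken frozen. All conditions share the line and its reporter, and the labels do not say whether the line was 1 clone. Droplet 3' gene expression and antibody hashtags were read from the same barcodes, and most cells carried 2 of 8 hashtags.

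The sources used here do not say which hashtags mark which condition. Values are therefore given for each pair of hashtags, and none can be read as a dose, a time or an effect of freezing. A pair is written by its hashtag numbers, so that 1+5 stands for the cells with hashtags 1 and 5. Of 7804 barcodes, 7201 passed the cell filter and 6114 had a readable pair, which gave 18 pairs of 166 to 493 cells. Summed counts of unique molecular identifiers (UMIs) ran from 5392185 to 16184801 per pair, and the median cell held 27824.5 to 32945 UMIs. Levels are CPM, which scales the UMIs of a gene by all UMIs of the pair, with exact Poisson 95% intervals. The pool was 1 sample and cells are not replicates, so intervals cover counting error only and no test between pairs was made. Of 7 epithelial markers 6 had at least 100 UMIs and the list summed to 3292.5 to 5581.5 CPM per pair. MUC16, with 23 UMIs, was the one that did not. The lymphoid list reached at most 0.479 CPM with CD3E and NKG7 at 0, the endothelial list 0.618 CPM with CDH5 at 0, and the fibroblast list 1.67 CPM with COL1A2 at 0. The myeloid list, with TYROBP at 0, summed to 29.1 to 43.8 CPM. Most of that sum was CD68, at 28.5 CPM in the pooled cells and with a UMI in 52.4% of them. CD14 was at 4.67 CPM, ITGAX at 1.21 and LYZ at 0.442, and AIF1 had 1 UMI.

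Interferon-gamma binds its receptor and activates the kinases JAK1 and JAK2. Transcription then starts from gamma-activated sites in DNA. The transcription factor IRF1 is one of the early products and in turn binds interferon-stimulated response elements. IDO1 and WARS are textbook targets of this cascade in many cell types. In tumours IDO1 is known for depleting tryptophan and for releasing kynurenine, a ligand of the aryl hydrocarbon receptor, both of which restrain T cells.

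Short stretches that match the letters of these 2 kinds of element are shown for WARS and KYNU, as the sequence near their annotated starts. No IDO1 window was used here. The search used the letters GAAANNGAAA for the core of the interferon-stimulated response element and TTCNNNGAA for the gamma-activated site, on both strands; the 2 motifs may overlap. Windows were 300 bases of the RefSeq promoter table (build GRCh38.p14), from 250 bases before to 50 after a transcription start. The first motif was present in 3.57% of 35116 such windows and the second in 7.66%. Matches are in capitals with 10 flanking bases on each side, 5′ to 3′ on the strand of the gene.
WARS response element core (chr14:100375383-100375412, minus strand): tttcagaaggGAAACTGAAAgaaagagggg
WARS gamma-activated site letters (chr14:100375471-100375499, minus strand): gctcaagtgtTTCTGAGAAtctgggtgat
KYNU gamma-activated site letters (chr2:142877620-142877648, plus strand): gtctgagcagTTCTTTGAAtttctcaccc
The WARS matches lay 55 to 46 and 142 to 134 bases before the same start. In GENCODE v29, where WARS has 44 transcripts, 16 have an exon at the first of these sites and 9 at the second. A second WARS start in the table, farther upstream, had neither motif in its window. The KYNU match lay 34 to 26 bases before the start, in the exon of 1 of 9 annotated KYNU transcripts. A further KYNU match to TTCNNNGAA lay just after the start, and the KYNU window had no match to GAAANNGAAA. These are matches of letters, and binding was not measured.

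Across the pairs IDO1 covered the widest range of the 3 genes. In the lower part of the order the IDO1 level was 24.1 CPM in pair 1+5, 25.8 in 3+5, 26.6 in 2+4, 27.1 in 5+7 and 36.5 in 1+2. It was 59.9 CPM in 1+3, 72.0 in 1+6 and 72.3 in 1+4. These 8 pairs all lay below 100 CPM, and the next pair in the order, 2+6, was 7.60-fold above 1+4 (7.06 to 8.20).

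The IDO1 level was 549.55 CPM in 2+6, 615 in 2+8 and 662 in 3+4, then 1574 in 3+7, 1995 in 4+7 and 2199 in 5+6. The highest values were 3084 CPM in 5+8, 3292 in 2+5, 3995 in 6+8 and 4298 in 7+8. The highest pair was thus 179-fold above the lowest (exact conditional interval of the ratio 155 to 207). Of the 17 steps between neighbours in this order, 13 had an interval above 1. The 4 that did not were the 3 steps from 1+5 to 5+7 and the step from 1+6 to 1+4. The order within those pairs is not resolved beyond counting error. As the pairs were sorted by these same values and the intervals leave out the spread between cells, the other steps are not settled either. The step from 5+7 to 1+2 leaned on 1 cell, without which 1+2 was at 23.7 CPM, below 5+7. In the pooled cells IDO1 ranked 118 among all genes by UMIs, with 238392.

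WARS followed nearly the same order with a narrower range and a higher floor. The WARS level was 42.9 CPM in 3+5, 44.7 in 2+4, 46.1 in 1+5, 46.2 in 5+7 and 48.2 in 1+2. It was 147 CPM in 1+4, 152 in 1+3 and 153 in 1+6. The 5 lowest WARS pairs could not be ordered, and 1+4 stood 3.06-fold above 1+2 (2.75 to 3.40). The next step up, from 1+6 to 2+6, was 3.63-fold (3.42 to 3.85).

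The WARS level was 555 CPM in 2+6, 600.25 in 3+4 and 614 in 2+8, then 960.5 in 3+7, 1070.1 in 5+6 and 1079.6 in 4+7. The highest values were 1297 CPM in 2+5, 1331 in 5+8, 1483 in 6+8 and 1517 in 7+8. The span from lowest to highest pair was 35.3-fold (32.7 to 38.2). Of 17 steps 8 had an interval above 1, with the same limits as for IDO1. Pair 7+8 was highest for both IDO1 and WARS.

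KYNU was rare and did not follow that order. All paired cells together held 577 KYNU UMIs. The KYNU level was 0.768 CPM in pair 1+5, where it rested on 6 UMIs, 1.48 in 3+7, 1.57 in 5+7, 1.76 in 7+8 and 2.02 in 5+8. It was 2.23 CPM in 2+5, 2.296 in 6+8, 2.55 in 3+4, 2.67 in 2+4, 2.74 in 5+6 and 3.02 in 1+2. Pair 7+8, highest for IDO1 and WARS, was the fourth lowest for KYNU.

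The upper KYNU values were 3.54 CPM in 4+7, 3.61 in 1+3, 3.71 in 2+6, 4.201 in 3+5, 4.33 in 1+6, 4.604 in 1+4 and 6.45 in 2+8. None of 17 steps between neighbours had an interval above 1. The span was 8.39-fold with a wide interval of 3.66 to 23.7. In pair 2+8, 26 of 66 KYNU UMIs came from 1 cell, without which the level was 3.93 CPM. Leaving out the cell with most UMIs in each pair made 1+4 the highest pair and gave a span of 6.61-fold, and thinning each cell to 10000 UMIs gave 5.39-fold, with 1 UMI in the lowest pair set to 3. The highest and lowest KYNU pairs therefore rest on few molecules and few cells.

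**Figure D1:**
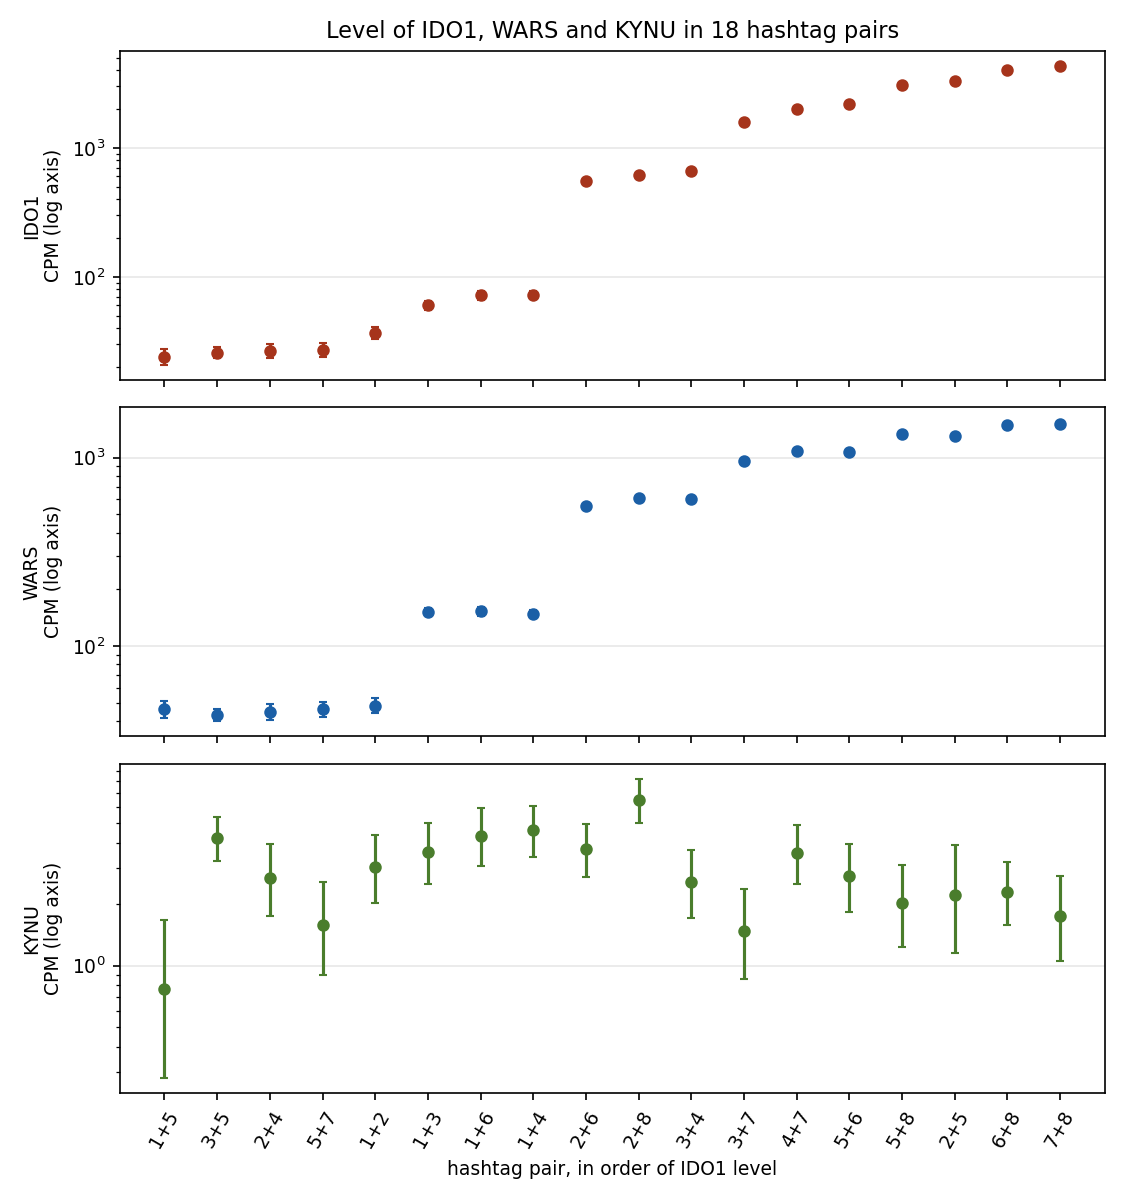
Level of IDO1 (top), WARS (middle) and KYNU (bottom) in CPM on log axes, 1 point per hashtag pair with its exact Poisson 95% interval, pairs in the order of IDO1. IDO1 runs from 24.1 to 4298 CPM and WARS from 42.9 to 1517 CPM along this order, while KYNU stays between 0.768 and 6.45 CPM with no such order.

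The balance of IDO1 and WARS UMIs shifted along the order. Each ratio compares the same cells, so it does not depend on their totals. It does depend on how well each transcript is captured, and is read here only between pairs. There were 0.394 IDO1 UMIs per WARS UMI in pair 1+3 (interval 0.358 to 0.434), 0.4703 in 1+6 and 0.491 in 1+4. The ratio was 0.522 in 1+5, 0.587 in 5+7, 0.595 in 2+4, 0.600 in 3+5 and 0.758 in 1+2. The pair with the lowest ratio, 1+3, was thus not the one with the lowest IDO1 level, 1+5 (ratio interval 0.435 to 0.625). The intervals of 1+6 (0.428 to 0.517) and 1+4 (0.450 to 0.535) overlapped that of 1+5, so their order is not resolved.

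Near equality was reached at 0.9897 in 2+6, 1.002 in 2+8 and 1.103 in 3+4. The ratio then rose through 1.64 in 3+7, 1.85 in 4+7, 2.06 in 5+6, 2.32 in 5+8, 2.54 in 2+5 and 2.69 in 6+8 to 2.83 in 7+8 (2.78 to 2.88). From 1+3 to 7+8 IDO1 thus gained on WARS. The ratio of 0.758 in 1+2 leaned on 1 cell, which held 124 of that pair's 350 IDO1 UMIs and 47 of its 462 WARS UMIs. Without it the levels in 1+2 were 23.7 CPM for IDO1, just under the 4 pairs that had lain below it, and 43.5 CPM for WARS.

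IRF1, which lies above IDO1 and WARS in the cascade, was distributed differently. It was highest in 1+6 at 1357 CPM, followed by 1+4 at 1349 and 1+3 at 1322. In these same pairs IDO1 was at 1.39 to 1.68% of its level in 7+8, and WARS at 9.71 to 10.1% of its own. In 7+8 IRF1 was at 1044.5 CPM, 76.99% of its highest level.

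Per IRF1 UMI there were 0.0453 IDO1 UMIs in 1+3, 0.0536 in 1+4 and 0.0531 in 1+6, against 4.12 in 7+8. For WARS the same ratio was 0.115, 0.109 and 0.113, against 1.45 in 7+8. CD74, the invariant chain of MHC class II, was at 19.1 CPM in 1+3, 21.6 in 1+4 and 23.1 in 1+6, with 1278 in 7+8. GBP1, an interferon-induced GTPase, was at 284 CPM in 1+3, 283 in 1+4 and 288 in 1+6, and was highest in 3+4 at 649 CPM. The chemokine CXCL10 was at 37.9, 33.1 and 28.5 CPM in 1+3, 1+4 and 1+6, and reached 315 CPM in 7+8. In the 3 pairs where IRF1 was highest CD74 was thus near its lowest level of 16.003 CPM, whereas IDO1 and WARS both lay above their lowest levels of 24.1 and 42.9 CPM.

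**Figure D2:**
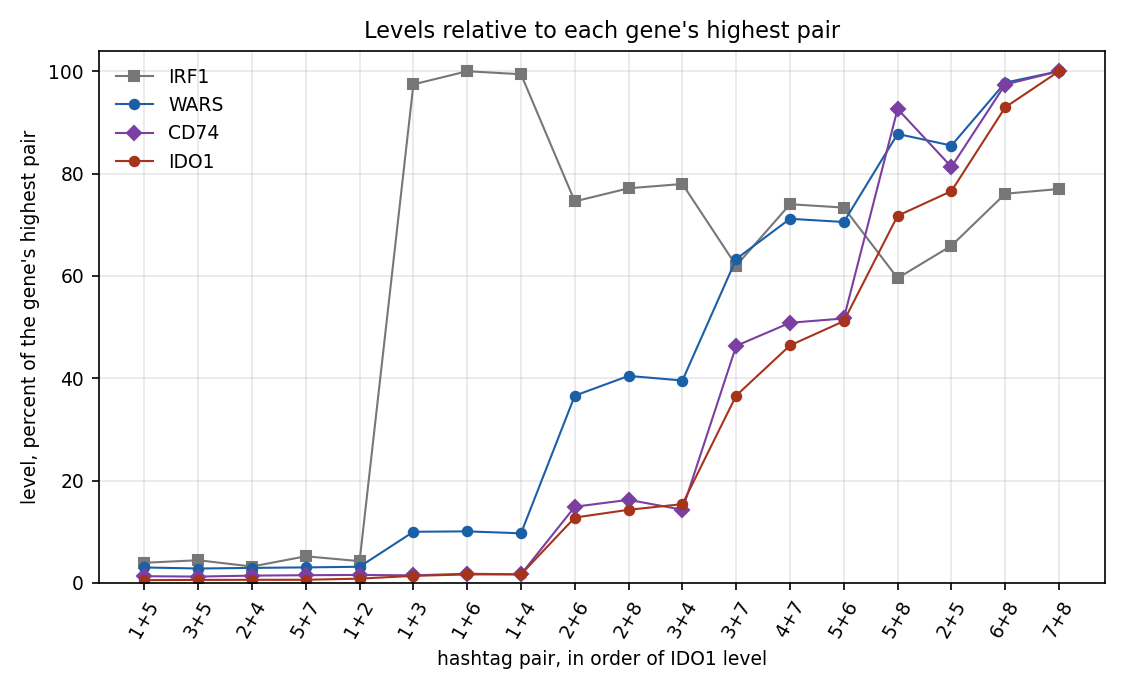
Level of 4 genes in each hashtag pair as a percent of that gene's highest pair, pairs in the order of IDO1; lines only help to follow a gene and stand for no course in time or dose. IRF1 is at 97.4 to 100% in 1+3, 1+6 and 1+4, where WARS is near 10% and IDO1 and CD74 are under 2%, and all but IRF1 are at 100% in 7+8.

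Which other genes shared the pattern was read from Pearson's r of log2(CPM + 1) over the 18 pairs, among genes with at least 2000 UMIs. The 18 points come from 1 library, so r describes these pairs and has no p. For IDO1 the 5 highest of 7565 genes were GBP5 (r = 0.996), ISG20 (0.995), IFI30 (0.995), VAMP5 (0.995) and OAS2 (0.994). GBP5 is an interferon-induced GTPase, ISG20 an exonuclease, IFI30 a lysosomal thiol reductase, VAMP5 a vesicle protein and OAS2 an RNA-sensing synthetase. Their spans ran from 5.60-fold (VAMP5) to 325-fold (GBP5), so a like order went with very different ranges.

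For WARS the 5 highest were IL18BP (r = 0.999), GBP4 (0.996), SLC15A3 (0.995), HLA-E (0.993) and GBP7 (0.993). IL18BP, a secreted binder of interleukin 18, ran from 3.15 to 126 CPM, a 39.9-fold span close to that of WARS. IDO1 and WARS had r = 0.987 with each other. With CD74, r was 0.992 for IDO1 and 0.961 for WARS. With IRF1, r was 0.698 for IDO1 and 0.798 for WARS.

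KYNU had r = -0.106 with IDO1 and -0.0207 with WARS. The genes most like it were PPRC1 (0.822), IL1RAP (0.816), RBMS1 (0.796), DNAJB6 (0.782) and NDUFA4 (0.778), with spans of 1.15-fold to 2.06-fold. At 6 to 68 KYNU UMIs per pair, these coefficients carry much counting noise. Of the 5 genes most like IDO1, 3 had promoter windows in the RefSeq table, 3 windows in all, of which 1 held GAAANNGAAA (3.57% of all windows did) and 0 held TTCNNNGAA (7.66%). Of the 5 most like WARS 3 had windows, 6 in all, with 2 and 1 matches, too few to read against those shares.

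The 3 genes also differed in how they were spread over the cells of a pair. To hold depth equal, each cell was thinned to 10000 UMIs, which left out 158 shallower cells, 5 to 19 per pair. A thinned IDO1 UMI was found in 16.8% of cells in 1+2 (exact Clopper-Pearson interval 12.9 to 21.4%; 45.6% unthinned), 19.7% in 1+5, 21.3% in 2+4, 22.1% in 3+5 and 22.4% in 5+7. The share was 36.7% in 1+3, 44.1% in 1+6 and 46.1% in 1+4. It was 86.01% in 2+6, 83.95% in 2+8 and 87.1% in 3+4, and from 97.9% to 100% in the other 7 pairs. So IDO1 was found in most cells from 2+6 upward and in nearly all cells of the 7 highest pairs.

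For WARS the thinned share was 33.02% in 1+2 (27.9 to 38.5%; 60.3% unthinned), 33.6% in 1+5, 33.96% in 3+5, 33.97% in 2+4 and 36.2% in 5+7. It was 65.2% in 1+3, 69.2% in 1+4 and 75.3% in 1+6, and at least 95.99% in the remaining 10 pairs. WARS thus had a UMI in more cells than IDO1 in each of the 8 lowest pairs. KYNU had a UMI in 0.42% of thinned cells in 1+5 (0.0106 to 2.32%; 2.47% unthinned) and at most in 4.38% in 3+5 (2.73 to 6.61%; 7.71% unthinned). Unthinned, 358 of 6114 cells (5.86%) had a KYNU UMI, 106 had at least 2 and 43 at least 3.

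A pool of cells in droplets shares free RNA, which gives UMIs in cells that do not express a gene. The pool holds no cell type that should lack these genes, so no background share could be measured. The lowest IDO1 pair stood at 1.92% of the pooled IDO1 level, the lowest WARS pair at 6.89%, the lowest KYNU pair at 25.3% and the lowest CXCL9 pair at 0.968%. How much of the lowest levels is free RNA was not tested.

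Where both genes were found in most cells, IDO1 varied more from cell to cell than WARS. In pair 2+6 the mean thinned count was 5.91 for IDO1 and 5.69 for WARS, so the means were nearly equal. The Fano factor, the variance over the mean, which counting noise alone puts at 1, was 8.27 for IDO1 and 2.66 for WARS there. The middle of the IDO1 distribution was 4 UMIs, with 0 at the 10th and 14.5 at the 90th percentile. For WARS these were 5, 2 and 10 UMIs. Of 386 thinned cells in 2+6, 54 had no IDO1 UMI, and the highest had 56.

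Beyond counting variance, the coefficient of variation between cells (CV, the SD over the mean) was 1.11 for IDO1 and 0.5399 for WARS in 2+6. It was 1.05 and 0.654 in 2+8, and 1.04 and 0.5902 in 3+4. In the higher pairs it was smaller for both, at 0.693 and 0.401 in 3+7 and 0.4204 and 0.302 in 7+8. The IDO1 value exceeded the WARS value in each of the 10 pairs from 2+6 upward. In 2+6 the 10% of cells with most IDO1 held 37.8% of its UMIs, against 24.6% of WARS UMIs in the 10% with most WARS, and in 7+8 these shares were 18.7 and 18.1%. The IDO1 value was 4.29 in 1+2, where the highest thinned count in a cell was 21.

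**Figure D3:**
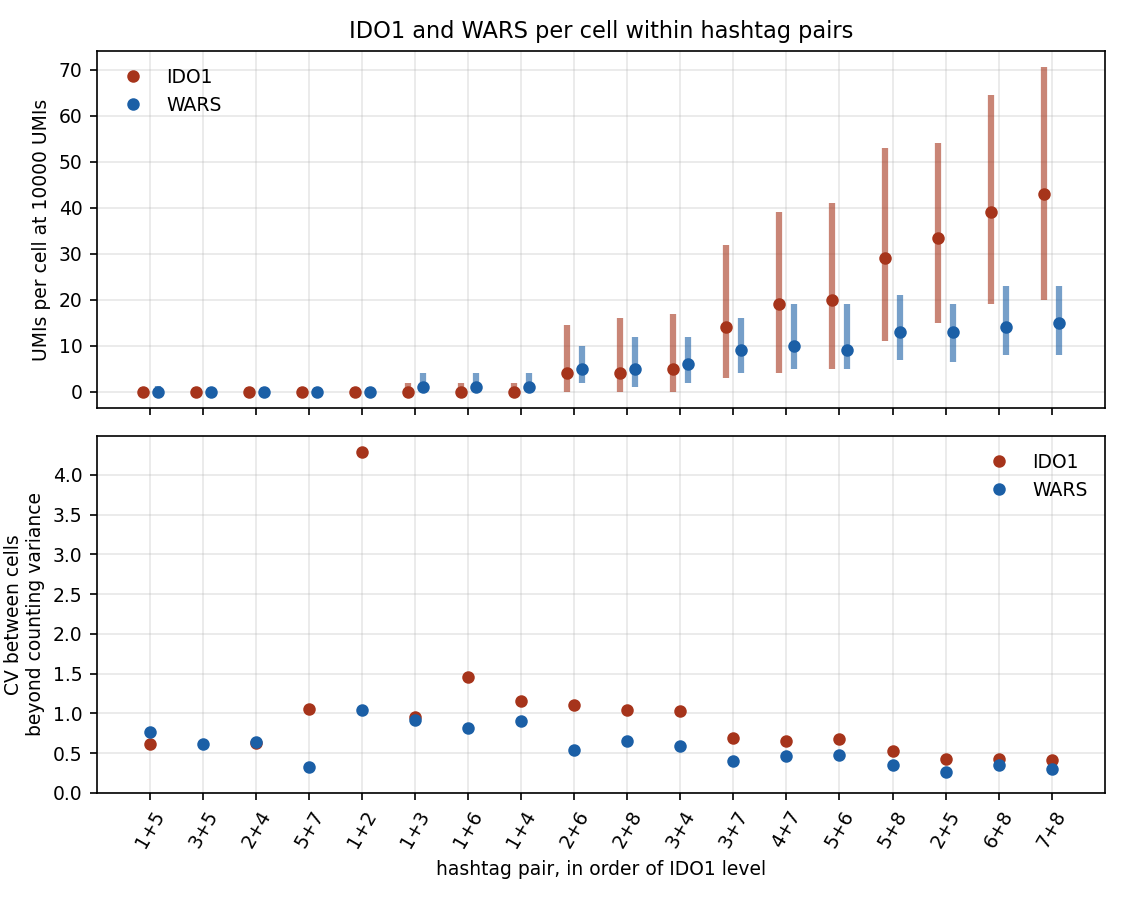
Top, thinned UMIs per cell of IDO1 and WARS in each hashtag pair, with the median as a point and the 10th to 90th percentile as a bar; bottom, the CV between cells beyond counting variance, which is not defined for IDO1 in 3+5. From 2+6 to 7+8 the IDO1 bars are wider than the WARS bars and the IDO1 CV is the larger, and the outlying IDO1 value of 4.29 is that of 1+2.

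Within a pair, cells with more IDO1 tended to have more WARS, but counts were too sparse to read this in the pairs with the lowest IDO1. Spearman's rho of the thinned counts had a median of 0.25 over the 18 pairs and was above 0 in all 18. It was close to 0 in the pairs with the lowest IDO1, at 0.0195 in 1+5, 0.0239 in 3+5, 0.0261 in 5+7, 0.0482 in 1+2 and 0.066 in 2+4. In these pairs the mean thinned IDO1 count was 0.223 (1+5) to 0.270 (5+7) UMIs per cell. Counts this sparse limit rho, so whether both genes vary together there is not resolved. The IDO1 and WARS rho was highest in 2+6 at 0.502, in 3+4 at 0.494 and in 2+8 at 0.4701. For IDO1 with IRF1 the median was 0.157, with 0.464 in 2+8, and for IDO1 with CD74 it was 0.184. With a list of 15 S phase genes the median was -0.131 for IDO1 and -0.146 for WARS, and with 15 mitosis genes -0.076 and -0.0884. Pairs 2+6, 2+8 and 3+4 stood lower. There IDO1 had -0.365, -0.418 and -0.384 with S phase genes and -0.249, -0.274 and -0.356 with mitosis genes. WARS had -0.290, -0.273 and -0.238, and -0.286, -0.387 and -0.369. With S phase genes rho was above 0 in 2 of 18 pairs for IDO1 and 5 for WARS, and with mitosis genes in 3 and 5. With the cell's unthinned total, rho had a median of -0.126 for IDO1 and -0.0501 for WARS, and with its mitochondrial share 0.0643 and 0.0461.

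The genes closest to IDO1 within pairs, by median rho among 7565 genes, were B2M (0.326), ISG15 (0.291), ISG20 (0.286), PLAAT4 (0.282) and TNFSF10 (0.275). B2M is the MHC class I light chain, ISG15 a ubiquitin-like modifier and TNFSF10 the death ligand TRAIL. For WARS they were ISG15 (0.270), CD74 (0.256), IFI27 (0.254), IDO1 (0.250) and TNFSF10 (0.237). IDO1 was thus among the 5 genes nearest to WARS from cell to cell. KYNU counts were too sparse for this measure: its rho had a median of 0.0217 with IDO1 and 0.0137 with WARS, and its highest were PTGR1 (0.0865), FTL (0.0815), SLC7A11 (0.0790), ASPH (0.0738) and IFI27 (0.0689).

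Among the 358 cells with a KYNU UMI, 81.0% also had an IDO1 UMI, against 79.9% of the other cells. Their summed IDO1 level was 1.17-fold the level of other cells of the same pairs (1.15 to 1.19), and their WARS level 1.12-fold (1.09 to 1.14). These intervals leave out the spread between cells. IDO1 was higher in 14 of 18 pairs and lower in 4, and WARS likewise in 14 and 4. PTGR1, an oxidoreductase, was 1.68-fold (1.61 to 1.74) and SLC7A11, the cystine transporter, 1.52-fold (1.45 to 1.60) that of the other cells. The cells with KYNU were deeper, with a median of 32194.5 UMIs against 29884, and the part of depth in these ratios was not tested. The 2 genes were picked by their rho with KYNU in the same cells, so their ratios are descriptions.

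A pair of small cell sets stood apart in IDO1 within their own hashtag pairs. Both were defined after their values had been seen. The 119 cells with at least 20 UMIs of the hair-type keratin KRT81 were found in all 18 pairs, 2 to 12 per pair. They held 684 IDO1 UMIs where the level of the other cells of their pairs would give 6306, a ratio of 0.108 (0.1005 to 0.117). WARS stood at 0.516 (0.491 to 0.541), IRF1 at 0.4002 and CD74 at 0.0963. Low values were not limited to these genes, with SLC7A11 at 0.174, FTL at 0.205, ASPH at 0.388 and PTGR1 at 0.484. KYNU had 3 UMIs where 16.3 would be reached. IDO1 was below its pair's level in 16 of 18 pairs and WARS in 13. These cells were deep, with a median of 42014 UMIs.

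The 225 cells with at least 3 UMIs of RSAD2, an antiviral interferon-induced enzyme, lay on the other side. IDO1 stood at 1.56-fold the level of their pairs (1.54 to 1.58) and WARS at 1.68-fold (1.65 to 1.72). IDO1 was higher in 17 of 18 pairs and WARS in all 18. KYNU had 53 UMIs where 21.4 would be reached, 2.48-fold (1.86 to 3.24). Those UMIs came from 13.8% of the 225 cells, and the weight of single cells in this ratio was not tested. IRF1 was at 1.195-fold and CD74 at 1.27-fold. Leaving out either set changed the IDO1 span by less than its counting interval, to 183-fold without the KRT81 cells and 180.02-fold without the RSAD2 cells.

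The enzymes around IDO1 and KYNU were mostly level across pairs or hardly present. A gene was called measured with at least 100 UMIs and wide with a span of at least 4-fold. Of all 13921 measured genes 14.5% were wide (median span 1.88-fold), and of the 7566 with at least 2000 UMIs 3.45% were (median 1.53-fold). Of 14 kynurenine pathway enzymes 10 were measured, and 3 of these were wide, with a median span of 1.74-fold. The 3 were IDO1, KYNU and TDO2, the liver-type tryptophan dioxygenase. TDO2 had 103 UMIs in all, and its 5.11-fold span has an interval of 1.38 to 28.2.

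AFMID, which turns the IDO1 product into kynurenine, spanned 1.64-fold, from 7.24 to 11.9 CPM. The aminotransferases that turn kynurenine into kynurenic acid were also level, KYAT3 at 1.37-fold, AADAT at 1.67-fold and KYAT1 at 1.74-fold. KMO, which makes 3-hydroxykynurenine, had 16 UMIs in all paired cells. IDO2 had 18 and HAAO, which acts after KYNU, had 2. ACMSD had 0, so that at most 3 of 189989029 UMIs are allowed for it. QPRT, which leads from the pathway into NAD, was highest in 1+2 at 91.3 CPM and lowest in 2+5 at 23.2, a 3.94-fold span (3.26 to 4.79) just under the limit. QPRT was below 50 CPM in all 7 pairs with the highest IDO1 and also in 1+5, 3+5 and 5+7.

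Of 20 cytosolic aminoacyl-tRNA synthetase genes all were measured, and WARS was the one that was wide. The other 19 spanned 1.25-fold (LARS) to 1.92-fold (RARS), and the list had a median of 1.46-fold. DARS, the most abundant of the others, ran from 156 to 202 CPM, and EPRS from 103 to 141 CPM. The mitochondrial enzyme WARS2 spanned 1.91-fold, from 6.78 to 12.99 CPM.

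**Figure D4:**
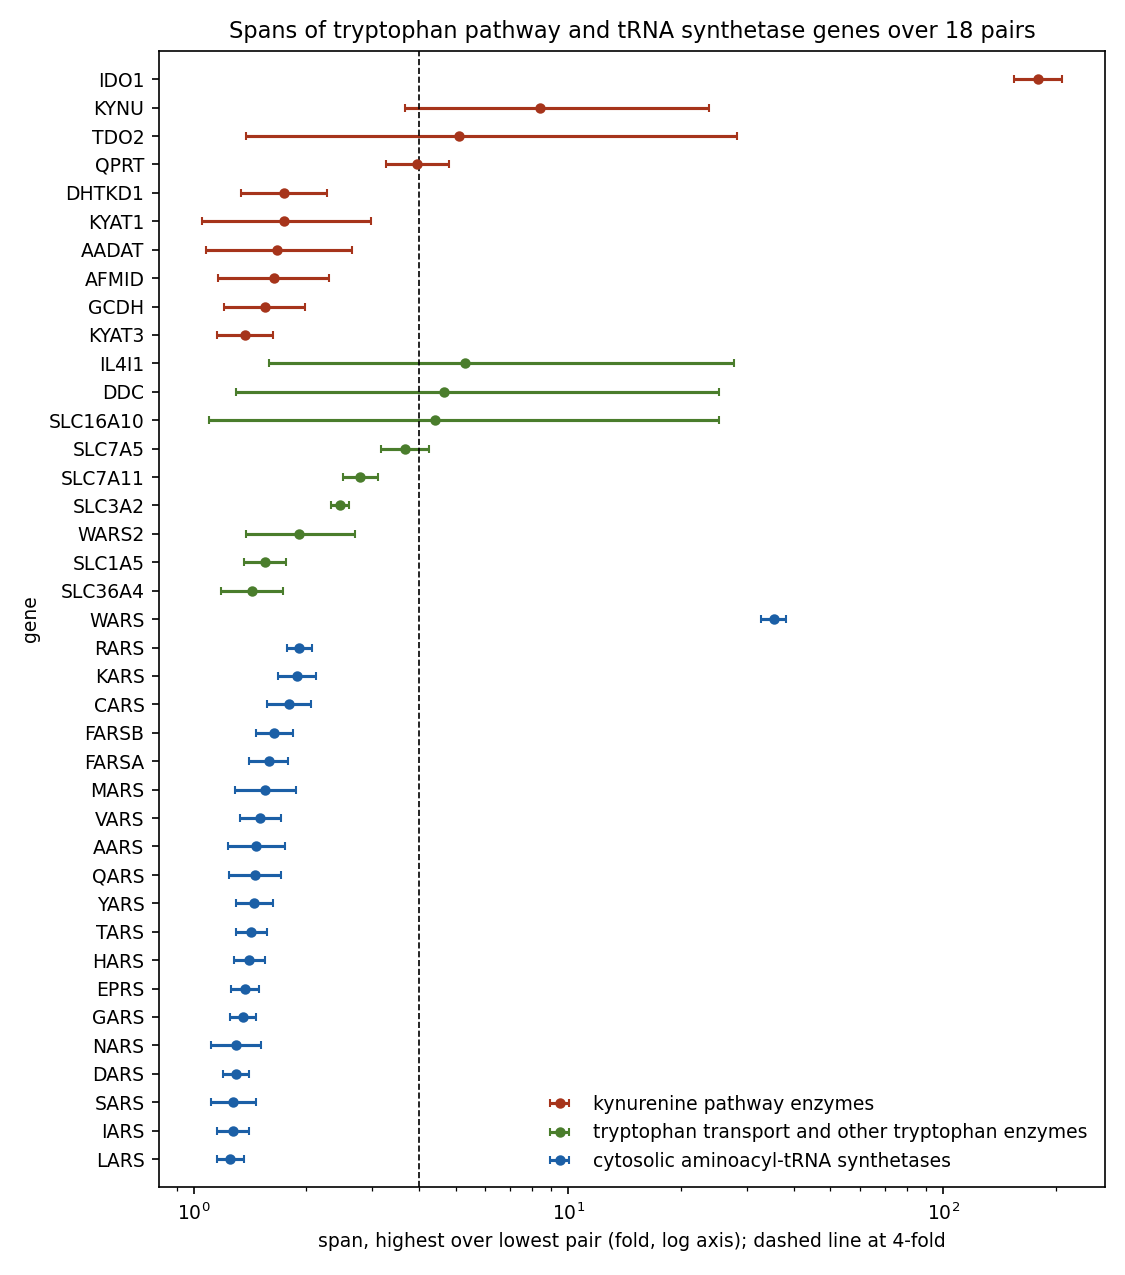
Span of each measured kynurenine enzyme, tryptophan transport gene and cytosolic tRNA synthetase gene over 18 hashtag pairs, highest over lowest pair on a log axis with exact conditional 95% intervals. IDO1 (179-fold) and WARS (35.3-fold) stand far to the right of the 4-fold line, and the other 19 synthetases end at 1.92-fold.

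Of 16 tryptophan transporters and other tryptophan enzymes, WARS included, 10 were measured and 4 were wide, with a median span of 3.23-fold. Beside WARS these were IL4I1, an amino acid oxidase (5.30-fold, 1.59 to 27.7), DDC, which decarboxylates aromatic amino acids (4.64-fold, 1.296 to 25.2), and SLC16A10, an aromatic amino acid transporter (4.4006-fold, 1.098 to 25.3). The last 3 had 236, 105 and 110 UMIs, so their spans rest on few molecules. SLC7A5 and SLC3A2 form the main transporter of tryptophan and other large neutral amino acids. SLC7A5 was highest in 2+4 at 143 CPM and lowest in 2+5 at 38.9, a 3.66-fold span. SLC3A2 ran from 445 CPM in 2+4 to 181 in 7+8 (2.46-fold).

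SLC7A5 was at 44.1 CPM in 5+8, 38.9 in 2+5, 42.4 in 6+8 and 41.5 in 7+8, the 4 pairs with the highest IDO1. It was at 119.66 CPM in 2+6, 127 in 2+8 and 117 in 3+4, and at 107.5 in 1+2, 102 in 1+3, 101 in 1+6 and 102 in 1+4. Among the pairs with the lowest IDO1 it differed, at 76.5 CPM in 1+5, 94.1 in 3+5, 143 in 2+4 and 62.6 in 5+7. Over the 18 pairs r with IDO1 was -0.613 for SLC7A5 and -0.383 for SLC3A2. Within pairs, rho of IDO1 and SLC7A5 had a median of -0.0777 and was above 0 in 2 of 18.

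**Figure D5:**
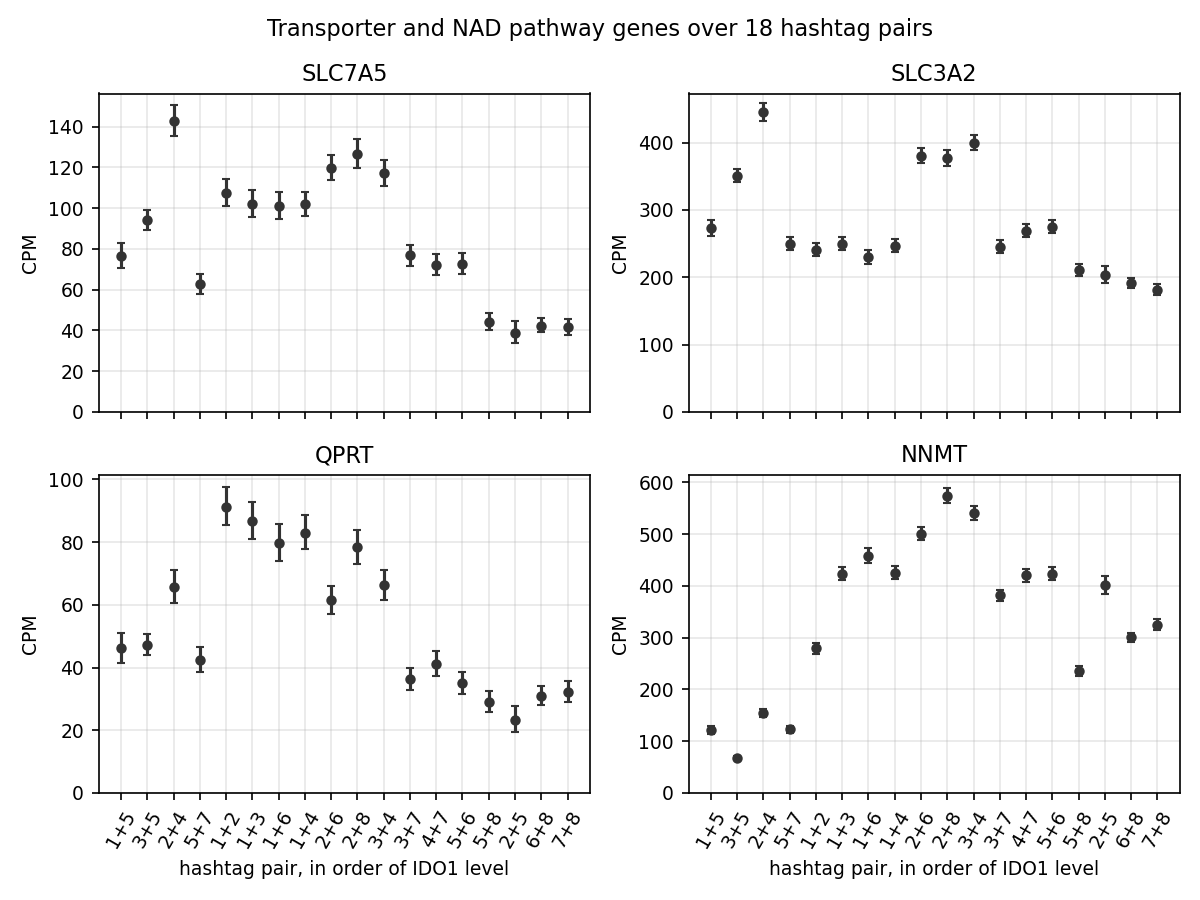
Level in CPM of the transporter genes SLC7A5 and SLC3A2, the NAD pathway gene QPRT and the methyltransferase gene NNMT in each hashtag pair, with exact Poisson 95% intervals and pairs in the order of IDO1. SLC7A5 is lowest in the 4 pairs with the highest IDO1 (38.9 to 44.1 CPM) and highest in 2+4 (143 CPM).

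Among 9 genes of NAD synthesis 8 were measured and 2 were wide, with a median span of 1.79-fold. NNMT, which methylates nicotinamide, ran from 66.9 CPM in 3+5 to 574 in 2+8 (8.58-fold, 8.04 to 9.16), and was at 325 CPM in 7+8. NMNAT3 spanned 5.08-fold on 212 UMIs. NAMPT, the rate-limiting enzyme of the salvage route, spanned 1.37-fold. NNMT was also at 424 CPM in 1+3, 426 in 1+4 and 459 in 1+6, where IDO1 was low, and at 421 in 4+7 and 424 in 5+6.

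Of 9 genes of the aryl hydrocarbon receptor pathway 8 were measured and 2 were wide, with a median of 2.82-fold. ALDH3A1, an aldehyde dehydrogenase, ran from 1.74 CPM in 6+8 to 19.9 in 2+4 (11.5-fold, 7.54 to 18.2). CYP1A1, the classical target of the receptor, ran from 1.05 CPM in 3+7 to 4.64 in 1+3 (4.43-fold, 2.30 to 9.20). CYP1B1 and TIPARP, further targets, were both highest in 1+4, at 723 and 55.3 CPM. ALDH3A1 was at 19.0 CPM in 2+8 and 18.7 in 2+6, close to its highest value, and CYP1B1 was at 637 CPM in 2+8. Where IDO1 was highest, ALDH3A1 was at 2.43 CPM in 5+8, 1.85 in 2+5, 1.74 in 6+8 and 1.76 in 7+8. It was at 6.91 CPM in 1+5, where IDO1 was lowest.

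Of 14 genes of the response to amino acid shortage 13 were measured and 3 were wide, with a median of 2.45-fold. ATF3, a stress-induced transcription factor, ran from 0.896 CPM in 1+5 to 18.4 in 1+3 (20.6-fold, 9.79 to 52.0). DDIT4, an inhibitor of mTORC1 signalling, ran from 5.77 CPM in 1+6 to 61.6 in 5+7 (10.7-fold). CHAC1 spanned 4.5003-fold on 123 UMIs. ATF4, the central factor of the response, spanned 1.62-fold. It was highest in 7+8 at 62.8 CPM, and was at 57.4 in 5+7, where IDO1 was low. TRIB3, one of its targets, spanned 1.93-fold and was highest in 3+5 at 31.0 CPM, where IDO1 was also low. ASNS, the asparagine synthetase gene, had 45 UMIs and was not measured.

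Among cofactors and regulators of IDO1, IRF1 spanned 31.0-fold and IRF8 27.6-fold (11.6 to 86.1), with the IRF8 level peaking in 2+8 at 17.7 CPM. SOCS3, which is known to direct IDO1 protein to degradation, ran from 8.86 CPM in 1+2 to 35.2 in 3+4 (3.97-fold). IDO1 needs haem and an electron donor. FECH, the last enzyme of haem synthesis, spanned 2.22-fold, and cytochrome b5 (CYB5A) and its reductase (CYB5R3) 1.302-fold and 1.26-fold. The shares of wide genes in these lists are read against the 14.5% among all measured genes, and as most lists hold few genes, nothing particular to a list is taken from them.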

How the data were processed

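One pool of OVCAR5 cells was measured as a 3' gene expression and a hashtag library. The deposited file holds whole UMI counts for every feature and barcode, with no scaling. Its header names Cell Ranger 5.0.1. Version 2.1.1 and GRCh38 come from the submitters' processing notes, and the difference in version was not resolved.

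Barcodes were kept with 500 or more genes and with mitochondrial UMIs of 20% or less. A pair was read where the second hashtag held at least 5 times the third plus 1 UMI. Cells of several pairs fail this rule; doublets within a pair do not, and no other caller was used. Summed UMIs of a pair over its total gave CPM; a span sets the lowest count to at least 3. Intervals are exact Poisson, conditional binomial or Clopper-Pearson at 95%. Python 3.11.15, numpy 2.4.6, scipy 1.17.1 and pandas 2.3.3 were used, and the calculations were tested on simulated data.

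No test was run, because hashtags could not be tied to conditions, which were not inferred. The genes and lists were chosen with earlier results of these data known. Named were the 3 genes, list members that spanned 4-fold or up to 4 others per list by UMIs, the 5 genes most like each, and IRF1, CD74, GBP1 and CXCL10 as references, with some genes of this rule not reported here; KRT81, RSAD2, CXCL9 and further list members were named outside this rule. Alternatives covered the cell filter, hashtag rule, total, thinning, cell weight, count minimum and fold.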

Additional observations from a re-analysis of the deposited data

Results flagged for a closer look

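Cells that entered no pair also carried these genes, which is given because the pairs do not use them. The CPM here leave out mitochondrial genes. The 603 barcodes that failed the cell filter had 1506 CPM of IDO1 and 771 CPM of WARS, against 1412.5 and 701 CPM in the paired cells pooled. Their KYNU count was 2. The 1087 cells without a pair had 1291 CPM of IDO1, 657 CPM of WARS and 2.54 CPM of KYNU, where the paired cells had 3.42 CPM of KYNU. These barcodes have no control group, and the limit that a count of 0 allows was 1.79 CPM in the barcodes that failed and 0.063 CPM in the cells without a pair.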

How the results depend on the processing

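The IDO1 span stayed between 168-fold and 197-fold under 9 alternatives and the WARS span between 34.1-fold and 37.3-fold, 3 of these alternatives (without the top cell of each pair, without KRT81 cells, without RSAD2 cells) having been chosen after seeing the data. The KYNU span ran from 5.39-fold to 8.75-fold. Pair 7+8 stayed highest for IDO1 and WARS in each of them. IDO1 was lowest in 1+5 except with the mean of per-cell CPM, which put 3+5 lowest. The highest IDO1 to WARS ratio was 2.76 when 1000 genes and a mitochondrial share under or at 15% were asked of a cell. The lowest share of cells with an IDO1 UMI was 45.6% without thinning and 9.20% when thinned to 5000 UMIs, and the median rho of IDO1 and WARS was 0.515 without thinning and 0.218 when thinned to 5000 UMIs; the cause was not tested. Of 20 tryptophan genes with at least 100 UMIs, IDO1, WARS and KYNU included, 7 spanned 4-fold (14.5% of all genes) and 11 spanned 2-fold (45.3%). Of 16 with at least 500 UMIs 3 spanned 4-fold (5.56% of all genes), and these were IDO1, WARS and KYNU themselves. No paired analysis was possible because the pool was 1 sample with no test. With 6 to 68 KYNU UMIs per pair, depth leaves each neighbouring step in the order of KYNU unresolved.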
